A study of Homo sapiens with 6 samples.

Results

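Wide GAPDH peaks were those over 150 nt in the 3 deposited lists of positions at which GAPDH was crosslinked to RNA in MOLM-13 cells, an established human acute myeloid leukaemia line. They were chosen by width alone, as end minus start plus 1, which gave 48 of 337 peaks in galactose, 68 of 484 in low and 99 of 495 in normal glucose, or 215 of 1316 peaks over all lists. GAPDH is a glycolytic enzyme that also binds RNA, and the question of the experiment was whether its RNA partners change with the sugar that the cells live on. Cells were kept for 24 hours in medium with 11 mM galactose, 5 mM glucose (low) or 11 mM glucose (normal), with 2 samples for each medium, 6 in all. The authors joined both samples of a medium into 1 list, so no spread between samples can be had, no test between media was possible, and all differences between lists below are descriptions. The lists hold a chromosome, a start, an end and the names of overlapping genes, without reads, scores or strand, so the depth behind a peak is unknown. Exact 95% Clopper-Pearson intervals are given for shares, and they cover counting error over peaks only, which are not replicates of a medium.

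The width of a peak is set by how far apart its crosslink sites lie. An isolated site was extended by 50 nt to either side, while sites close to each other were merged into 1 longer stretch. For a wide peak, 50 nt were taken off at each end to give its core. The core is the stretch between the outermost sites only if merged sites were extended as isolated ones were. This was assumed, as the methods state the extension for isolated sites only. Most of the wide peaks lay on genes of structural RNA. Transfer RNA (tRNA), which GAPDH has long been known to bind, carries amino acids to the ribosome. It is transcribed by RNA polymerase III, in most cases from promoter elements inside the gene, the A box and the B box. The 5S RNA is the smallest RNA of the large ribosomal subunit, is also made by polymerase III, and has left many pseudogenes across the genome. Small nucleolar RNAs (snoRNAs) guide the chemical modification of other RNAs, with box C/D members guiding methylation of the ribose and box H/ACA members guiding pseudouridine formation, and most are cut out of introns of host genes.

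The tRNA peaks below in sequence were picked because they show how a wide peak sat on a tRNA gene. They are the widest tRNA peak found in all 3 lists and 1 example each for glycine, lysine and valine, which had many wide regions. Arginine, with 7 wide genes as for glycine, is not shown. Each sequence is the deposited peak as normal glucose gave it (hg38), read on the strand of the tRNA, with the tRNA gene in capitals and the bases around it in lower case. The lysine tRNA TRK-CTT1-2 lay in an intron of MORF4L1, a chromatin protein gene (chr15:78860510-78860685, plus strand) and the glycine tRNA TRG-GCC2-6 in a long non-coding RNA gene (chr17:8125694-8125869, plus strand). The valine tRNA TRV-TAC1-1 (chr11:59550575-59550753, minus strand) also lay in a long non-coding RNA gene. The selenocysteine tRNA TRU-TCA1-1 lay in an intron of the DNA repair gene ERCC1 (chr19:45478547-45478740, minus strand).
TRK-CTT1-2: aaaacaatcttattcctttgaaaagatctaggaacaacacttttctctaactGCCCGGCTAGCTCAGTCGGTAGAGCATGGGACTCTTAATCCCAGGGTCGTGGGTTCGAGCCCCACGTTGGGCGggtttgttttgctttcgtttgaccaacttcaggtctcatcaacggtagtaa
TRG-GCC2-6: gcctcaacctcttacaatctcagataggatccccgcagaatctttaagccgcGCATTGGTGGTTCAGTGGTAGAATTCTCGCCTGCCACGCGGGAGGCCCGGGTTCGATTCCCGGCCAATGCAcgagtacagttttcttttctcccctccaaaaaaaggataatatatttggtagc
TRV-TAC1-1: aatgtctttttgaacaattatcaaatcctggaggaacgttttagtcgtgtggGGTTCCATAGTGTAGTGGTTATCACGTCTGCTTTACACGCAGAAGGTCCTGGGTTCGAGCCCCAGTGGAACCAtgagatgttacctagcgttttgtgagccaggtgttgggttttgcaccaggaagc
TRU-TCA1-1: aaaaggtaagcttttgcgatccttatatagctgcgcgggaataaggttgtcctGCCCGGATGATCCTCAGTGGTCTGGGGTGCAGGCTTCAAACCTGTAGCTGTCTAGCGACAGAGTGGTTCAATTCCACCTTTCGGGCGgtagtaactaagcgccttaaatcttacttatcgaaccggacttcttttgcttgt

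The next sequences, chosen after their values were seen, show wide peaks on other small RNA loci, with the annotated RNA again in capitals. RNU1-88P, a copy of the U1 spliceosomal RNA, had the same wide peak in all 3 lists (chr6:36639554-36639724, minus strand), and the peak ends before the RNA does. The first 30 bases of RNU2-2P, a U2 locus discussed below (chr11:62841780-62841809, minus strand), are given as well.
RNU1-88P: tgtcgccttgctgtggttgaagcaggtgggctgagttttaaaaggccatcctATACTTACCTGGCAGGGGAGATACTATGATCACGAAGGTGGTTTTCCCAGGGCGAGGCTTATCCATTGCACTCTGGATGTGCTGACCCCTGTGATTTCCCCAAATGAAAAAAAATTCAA
RNU2-2P: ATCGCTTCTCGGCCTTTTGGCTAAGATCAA

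Wide peaks were 14.2% of the galactose list (interval 10.7 to 18.4%), 14.05% of the low glucose list (11.1 to 17.5%) and 20% of the normal glucose list (16.6 to 23.8%). Their widths fell into a narrow band. Between 170 and 200 nt lay 43 of the 48 wide galactose peaks, 45 of the 68 in low and 79 of the 99 in normal glucose, and the median widths were 179, 177.5 and 181 nt. The narrower peaks had the width of 1 extended site as their median in each list, and 194, 228 and 321 of them had exactly that width. Few peaks lay near the threshold in galactose and normal glucose, where 8 and 6 were between 126 and 150 nt, against 31 in low glucose. As the plot of widths shows, the band held a step near 178 nt made of tRNA peaks and, mainly in normal glucose, a step near 191 nt made of 5S loci and snoRNAs.

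**Figure D1:**
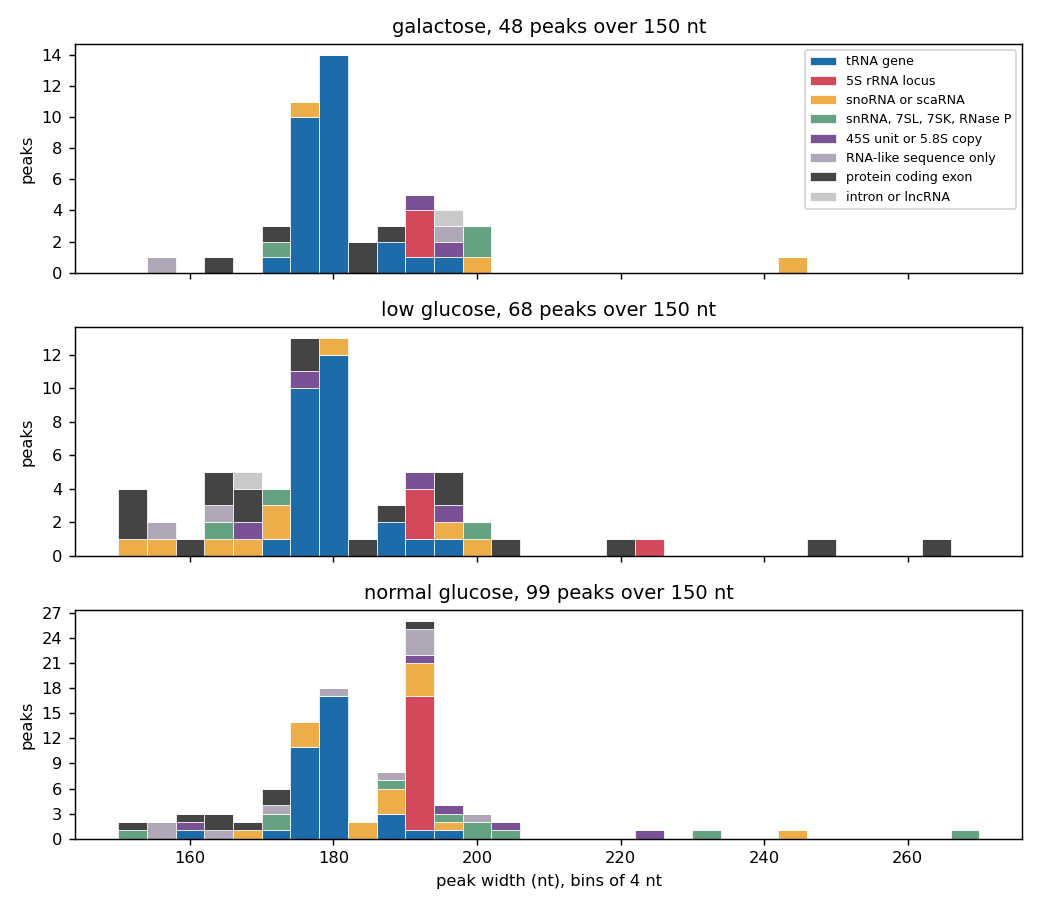
Width of each wide peak (x axis, nt, bins of 4 nt) against the number of peaks (y axis) in the galactose, low glucose and normal glucose lists, coloured by the kind of locus that the peak was assigned to. tRNA peaks had a median of 178, 178 and 179 nt, and the 16 peaks on 5S loci of normal glucose had a median of 191 nt.

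Just inside the threshold stood HFM1 at 157 nt in galactose, SNORA10 in RPS2 and the ribosomal protein gene RPS23 at 151 nt in low glucose, and PGK1, a glycolytic kinase, at 152 nt in normal glucose. Just outside it, an intronic peak of SLCO5A1 measured 148 nt in every list, and OAZ1, an inhibitor of polyamine synthesis, measured 150 nt in low glucose. The widest galactose peaks were those on the H/ACA snoRNA SNORA7A in RPL32 (242 nt), on RNU2-2P (201 nt) and on RN7SL1, the RNA of the signal recognition particle (201 nt). In low glucose the widest were LYN, a Src family kinase of myeloid cells (262 nt), the elongation factor EEF2 (246 nt) and the 5S locus RNA5SP150 in SOX2-OT (224 nt). In normal glucose they were RNU2-2P (266 nt), the box C/D snoRNA SNORD10 in the initiation factor gene EIF4A1 (245 nt) and RN7SKP79, a copy of the 7SK RNA (233 nt). The widest peaks of galactose and normal glucose were thus all on small RNA loci, while those of low glucose included 2 exons of messenger RNA (mRNA).

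Structural RNA loci held most of the wide peaks and fewer of the narrower ones. A peak was counted if its middle lay in a tRNA gene or a 45S ribosomal unit. It was also counted if its list named a gene of 5S RNA, snoRNA, spliceosomal RNA or another small RNA. For those any overlap was enough, which a wider peak meets more easily. This held for 40 of 48 wide peaks in galactose (83.3%, interval 69.8 to 92.5%), 47 of 68 under low glucose (69.1%, 56.7 to 79.8%) and 81 of 99 in normal glucose (81.8%, 72.8 to 88.9%). Among peaks of 150 nt or less the same held for 30.4% (88 of 289), 20.7% (86 of 416) and 32.3% (128 of 396). Not every kind took more of the wide peaks. Spliceosomal RNA loci took 4.17%, 4.41% and 5.05% of the wide peaks and 4.5%, 4.33% and 6.06% of the narrower ones. For other small RNAs, such as 7SL and 7SK, the shares were 2.08%, 0% and 5.05% against 5.88%, 2.88% and 7.32%. Protein coding exons took 5, 18 and 8 wide peaks, or 10.4%, 26.5% and 8.08%, against 40.1%, 42.8% and 38.9% of the narrower peaks. Away from any structural RNA or match to one, introns of protein coding genes took a single wide peak, in the transcriptional repressor gene CIC (196 nt, galactose), and PLUT, a long non-coding RNA gene, held another in low glucose (169 nt), while 40, 75 and 43 narrower peaks lay in such introns.

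**Figure D2:**
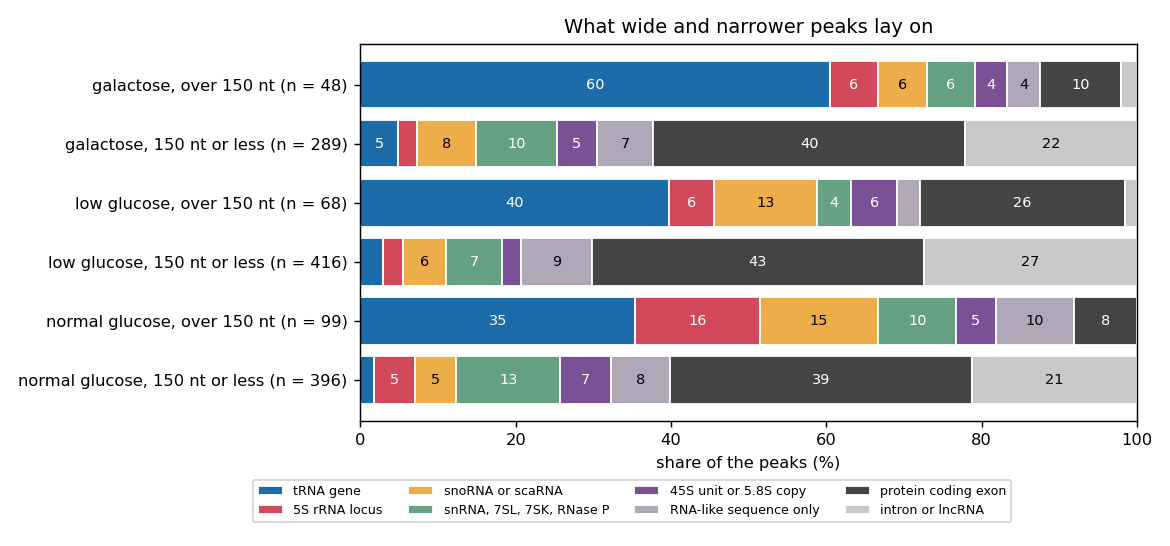
Share of the peaks (x axis, %) of each list that lay on each kind of locus, for peaks over 150 nt and for the rest, with shares of 4% or more printed. tRNA genes took 60.4%, 39.7% and 35.4% of the wide peaks of galactose, low and normal glucose, against 4.84%, 2.88% and 1.77% of the narrower ones.

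Transfer RNA genes were the largest group of wide peaks in each list. They held the middle of 29 of 48 wide peaks in galactose (60.4%, interval 45.3 to 74.2%), 27 of 68 under low glucose (39.7%, 28 to 52.3%) and 35 of 99 in normal glucose (35.4%, 26.0 to 45.6%). Of the narrower peaks 14 of 289, 12 of 416 and 7 of 396 did. The odds of lying on a tRNA gene were 29.3 times as high for a wide as for a narrower peak in galactose (conditional odds ratio, interval 12.7 to 71.4), 21.9 times under low glucose (9.87 to 51.3) and, in the normal glucose list, 30.05 times (12.5 to 83.7). With any overlap counted in place of the middle, the odds ratios were 10.6, 5.99 and 9.23, and against only those narrower peaks that held more than 1 extended site they were 11.4, 14.6 and 12.97. The share was lower in normal glucose than in galactose although the number was higher, as the normal glucose list held 64 wide peaks off tRNA genes against 19 in galactose.

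On these genes the core of the peak, without the 50 nt taken off at each end, matched the tRNA closely. It reached just beyond both ends of the RNA: the core started at a median of -2 nt from the tRNA's 5′ end in all 3 lists (negative values lie upstream) and ended at a median of 3 nt past its 3′ end. Core ends ranged from 1 to 7 nt past the 3′ end in each list. Core starts ranged from -4 to 5 nt in galactose, from -3 to 6 nt in low and from -3 to 17 nt in normal glucose. The core lay within -4 to 2 nt of the 5′ end and within 7 nt of the 3′ end, limits set after the values were seen, for 28 of 29, 26 of 27 and 33 of 35 peaks. The exceptions were the proline tRNA TRP-CGG1-3 in LINC00324, whose core started 5 or 6 nt inside the gene, and the valine tRNA TRV-CAC1-5 at TRIM41, whose core started 17 nt inside it in normal glucose. Plus strand and minus strand genes gave the same median start of -2 nt, and median ends of 3 and 4 nt, over 21 and 20 distinct peaks. The lengths followed those of the RNA: the wide tRNA genes were 71 to 87 nt long, and the longest, TRU-TCA1-1, had the widest tRNA peak, at 194 nt in every list. Width chose these peaks, so a peak over part of a tRNA could only have been kept if its core reached 51 nt.

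**Figure D3:**
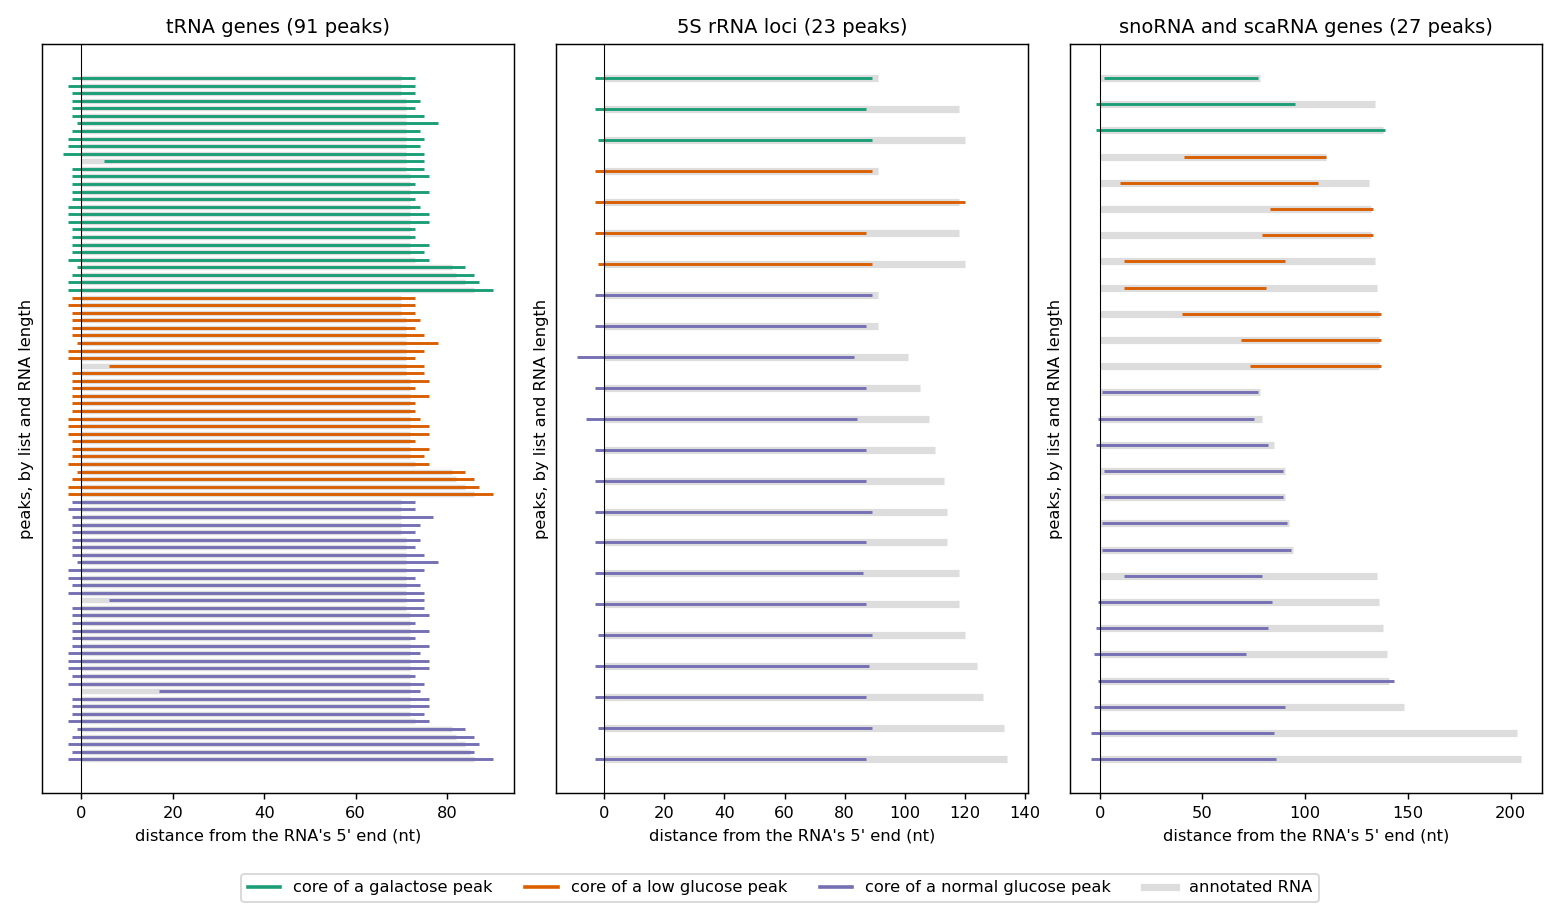
Position of the core of every wide peak (coloured lines, 1 for each peak and list) on the annotated RNA (grey), as distance from the RNA's 5′ end (x axis, nt), for tRNA genes, 5S loci, and snoRNA and scaRNA genes, the last guiding modification of spliceosomal RNA. Cores spanned the tRNA from end to end in 28 of 29, 26 of 27 and 33 of 35 peaks of galactose, low and normal glucose, stopped at positions 84 to 90 of the 5S loci in all but 1 peak of low glucose, and started at the 5′ end of the snoRNA for 14 of 15 peaks in normal glucose and for 0 of 9 in low glucose.

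Narrower peaks were assigned by their middle, so those of 1 extended site had to have their core inside the tRNA, and the position of their cores is a description only. With the same 50 nt taken off, they started at 8 to 72 nt in galactose, 15 to 72 nt in low and 14 to 35 nt in normal glucose, at a median of 34, 50 and 25 nt, and ended at -37, -30 and -47 nt from the 3′ end, in 13, 11 and 7 peaks with a known strand, and 6, 6 and 5 of all 14, 12 and 7 such peaks had the width of 1 extended site or 1 nt more. Recurrent sequence, defined as a peak with more than 50% of its 30-mers found elsewhere in the genome, also differed. It was seen in 3 of 29, 2 of 27 and 2 of 35 wide tRNA peaks, and in 7 of 14, 6 of 12 and 6 of 7 narrower ones. A wide peak also takes in more of the sequence beside the gene. Whether mapping to repeated sequence set the width was not tested.

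The same tRNA genes recurred between media, in most cases to the base. Over all lists 38 tRNA genes for 13 amino acids had a wide peak, and 26 of them had one in every list. In 24 of these 26 the start and the end were identical in all 3 lists. The other two were the glycine tRNA TRG-TCC2-6 (178, 177 and 177 nt in galactose, low and normal glucose) and TRP-CGG1-3 (171, 170 and 170 nt). Arginine and glycine had 7 genes each, lysine 6, valine 5, and aspartate and glutamate 3 each. Asparagine, glutamine, histidine, leucine, proline, selenocysteine and serine had 1 each. Every position in the lists carries the name of an annotated gene, and 184 of the 443 nuclear tRNA genes overlap one, so these numbers are no share of the tRNA genes bound.

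By amino acid, the tRNA genes wide in all 3 lists were these. For arginine they were TRR-CCT1-1 and TRR-CCT2-1, both in an intron of KCTD2 (178 and 180 nt), TRR-CCT4-1 in LUC7L2, a splicing factor (180 nt), TRR-TCG1-1 in POLG-DT (176 nt) and TRR-TCT1-1 in ENSG00000260464 (191 nt). For glycine they were TRG-CCC2-2 in MCRIP2 (176 nt), TRG-GCC2-1 at FCGR2A, an antibody receptor of myeloid cells (177 nt), TRG-GCC2-6 in ENSG00000288993 (176 nt) and TRG-TCC2-6. For lysine they were TRK-CTT1-1 in ARMH4 (179 nt), TRK-CTT1-2 in MORF4L1 (176 nt), TRK-CTT2-2 in ENSG00000286644 (179 nt) and TRK-CTT3-1 in ENSG00000261889 (176 nt).

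Aspartate had TRD-GTC1-1 in LINC02453 (177 nt), TRD-GTC2-8 in LTA4H, a leukotriene enzyme (178 nt), and TRD-GTC2-11 in LINC00324 (176 nt). Valine had TRV-TAC1-1 (179 nt) and TRV-TAC2-1 (178 nt), both in ENSG00000287264. Glutamate had TRE-CTC1-1 in HJV, a regulator of iron (180 nt), and TRE-TTC4-1 in LINC01783 (179 nt). The remaining ones were TRL-CAG1-6 for leucine (189 nt), TRN-GTT2-7 for asparagine (180 nt), TRP-CGG1-3 for proline, TRQ-CTG1-4 for glutamine in RAB11A, a small GTPase (178 nt), TRS-GCT3-1 for serine (186 nt) and TRU-TCA1-1 for selenocysteine in ERCC1. Widths in brackets were the same in all 3 lists.

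Of the other tRNA genes, 8 were wide in normal glucose alone, 2 in galactose alone and 1 in low glucose alone, and the histidine tRNA TRH-GTG1-6 was wide in galactose (180 nt) and normal glucose (179 nt). The normal glucose ones, named after their values were seen, were TRG-GCC2-4 and TRG-GCC2-5 in the lipid kinase scaffold gene VAC14, TRG-TCC3-1 in LINC00324, TRR-TCG3-1 in KCTD2, TRV-CAC3-1 in DPP9, TRV-CAC1-5 at TRIM41, and TRR-TCT3-2 and TRK-TTT5-1 in ENSG00000287264. Those of galactose were TRE-TTC3-1 for glutamate in CROCC (177 nt) and TRV-AAC2-1 for valine in LINC01962, and that of low glucose was TRK-CTT4-1 for lysine in ENSG00000262668 (176 nt). A narrower peak of another list overlapped 7 of the 11 regions that were wide in 1 list, and 4 had none. Only at TRV-CAC1-5 did the middle of such a narrower peak lie in the tRNA gene, at 103 nt in galactose and in low glucose. The region of TRR-TCT3-2, 189 nt wide in normal glucose, met peaks of 103 nt in galactose and of 102 nt in low glucose. That of TRV-AAC2-1, 176 nt wide in galactose, met peaks as wide as 1 extended site in both other lists. At both genes the middle of these narrower peaks lay outside the tRNA gene.

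The strand of the RNA could not be read from the lists, and the host genes did not settle it. Where both strands were known, 20 of 37 wide tRNA genes lay on the strand of the gene whose name the list gave, so 17 ran against it. Position alone does not tell whether the crosslinked RNA was the tRNA or the transcript around it. A sequence shared with no other nuclear tRNA gene was found in 18 of the 38 wide genes (47.4%) and in 8 of the 18 tRNA genes with narrower peaks only (44.4%), against 50.3% of all 443. The B box motif GTTCNANNC (N is any base, both strands read) was present in a 151 nt window at the middle of all 29, 27 and 35 wide tRNA peaks. Of the 443 nuclear tRNA genes 391 carry it, so most peaks on such a gene hold it by their position. Off tRNA genes, the motif was found in 0 of 19, 3 of 41 and 1 of 64 wide peaks. It was in 10.9%, 10.1% and 6.68% of the narrower peaks off tRNA genes, and in 3.93% of 35116 RefSeq promoter windows of the same length (GRCh38). Away from tRNA genes, wide peaks thus did not carry the motif more often than narrower ones in these lists. The aminoacyl-tRNA synthetases, which charge tRNAs with their amino acids, had no peak of any width in any list. The share of all annotated genes with a peak is not given here, so this count has no background and is no result about them.

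5S loci had more wide peaks in normal glucose than in the other lists. There were 3 wide peaks in galactose (6.25%), 4 under low glucose (5.88%) and 16 in normal glucose (16.2%, interval 9.53 to 24.9%). Among narrower peaks the counts were 7, 11 and 21. RNA5SP149, RNA5SP202 and RNA5SP370 had wide peaks with identical ends in all 3 lists (193, 191 and 192 nt), and RNA5SP150 had them in low glucose (224 nt) and normal glucose (190 nt). The other 12 loci were wide in normal glucose alone, and at 10 of them neither other list had any peak. They were RNA5SP99, RNA5SP145, RNA5SP161, RNA5SP191, RNA5SP199, RNA5SP226, RNA5SP290, RNA5SP298, RNA5SP352, RNA5SP355, RNA5SP387 and RNA5SP429, many of them in introns of coding genes.

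The 5S peaks repeated 1 shape at different places. In normal glucose all 16 cores were 90 to 93 nt long, 14 started within -4 to 2 nt of the annotated 5′ end, and all ended at position 84 to 90 of the RNA. The 2 exceptions at the 5′ end were RNA5SP191 (-9 nt) and RNA5SP429 (-6 nt). The annotated RNAs were of different lengths, so their cores ended -47 to -2 nt from the 3′ end. Of all wide 5S peaks, only that of RNA5SP150 in low glucose went past the 3′ end, with a core of 124 nt that ended 2 nt past it. These copies share some sequence, and the lists cannot show which locus was the source of a read. The recurrent share of a wide 5S peak, measured as for the tRNA peaks, ran from 12.2% (RNA5SP191) to 51.85% (RNA5SP429) in normal glucose. Only RNA5SP429 was above the 50% limit there. These shares are for the whole peak, with the bases outside its core. Whether reads of the 5S RNA were placed at several copies, and whether that gave the repeated shape, was not tested.

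A further 10 wide peaks of normal glucose, and 2 each of galactose and low glucose, lay on no annotated structural RNA but matched one by sequence. Those in normal glucose included 4 that matched 5S RNA, in introns of FAM234B (98.9% identity over 94 nt), FIG4 (96.9% over 97 nt) and ZNF814 (95.8% over 95 nt) and in the pseudogene APOOP5 (94.8% over 96 nt), with widths of 188 to 193 nt. HFM1, a meiotic helicase gene, held an intronic peak of 157 nt with the same ends in all 3 lists, and 143 of its bases matched the 45S ribosomal unit at 99.3%. GCNT1, a glycosyltransferase gene, had intronic wide peaks that matched the 45S unit in galactose (196 nt, 79.3% identity) and normal glucose (181 nt, 94.5%). UNC45B (170 nt, 96.0% identity) and ENSG00000225840 (157 nt, 90.9%) also matched it in normal glucose. Matches to the 12S RNA of mitochondria were seen at ZNF385B (83.8%, 165 nt) and ENSG00000291025 (88.5%, 200 nt) in normal glucose. FLYWCH1 held a 162 nt peak in low glucose over a 72 nt match to a lysine tRNA (90.3%). With these matches added, structural RNA sequence took 87.5%, 72.1% and 91.9% of the wide peaks and 37.7%, 29.8% and 39.9% of the narrower ones.

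The 45S units of chromosome 21, which are transcribed as the precursor of the large ribosomal RNAs, and a 5.8S pseudogene held 2, 4 and 5 wide peaks. Loci of this kind took 4.17%, 5.88% and 5.05% of the wide peaks, against 5.19%, 2.4% and 6.57% of the narrower ones. ENSG00000280441 (chr21:8445911-8446100, 190 nt) and the 5.8S pseudogene RNA5-8SP6 (194 nt) had the same wide peak in all 3 lists. The other 5 regions were wide in 1 list, 2 in low glucose and 3 in normal glucose. Copies of the unit share their sequence, so its peaks cannot be assigned to 1 copy.

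SnoRNA genes carried 3 wide peaks in galactose (6.25%, interval 1.31 to 17.2%), 9 under low glucose (13.2%, 6.24 to 23.6%) and 15 at normal glucose (15.2%, 8.74 to 23.8%). Of the narrower peaks they took 7.61% (22 of 289), 5.53% (23 of 416) and 5.3% (21 of 396), so in galactose the wide share was not higher. Which end of the RNA the wide peaks covered differed between the lists. In normal glucose the core started within -4 to 2 nt of the snoRNA's 5′ end for 14 of 15 peaks. In low glucose this held for 0 of 9. There, 6 of 9 cores started 40 nt or more inside the RNA, and these ended 0 or 1 nt past its 3′ end. They were SNORD94, SNORD67 in CKAP5 (170 nt), SNORA80E in KHDC4 (169 nt), SNORA10, SNORA67 and SNORA50C (155 nt). The other cores, on SNORA44 in SNHG12 (197 nt), SNORA55 in PABPC4 (179 nt) and SNORA80B, started 10 or 12 nt inside the RNA. The median core start was 41 nt in low glucose and -1 nt in normal glucose. None of the 23 snoRNA regions was wide in all 3 lists, so this compares different genes for the most part. Only SNORD94 and SNORA80B were wide in both low and normal glucose. At the box C/D RNA SNORD94, in PTCD3, the low glucose core ran from 73 nt inside the RNA to 1 nt past its 3′ end (165 nt peak), and the normal glucose core from -1 nt to -52 nt from the 3′ end (186 nt). At the H/ACA RNA SNORA80B, in the polyamine gene ODC1, both cores started at 12 nt and ended at -54 and -56 nt. For narrower snoRNA peaks, the middle lay past the midpoint of the RNA for 17 of 22 in galactose, 18 of 23 in low and 14 of 21 in normal glucose.

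Box C/D snoRNAs were covered from end to end in normal glucose. Of its 9 wide peaks on them, 8 spanned the RNA within the limits used for tRNA, and SNORD94 was the exception. They included SNORD10 in EIF4A1, SNORD35A in RPL13A (185 nt), SNORD83A and SNORD83B in RPL3 (193 and 191 nt), SNORD88A and SNORD88C in C19orf48 (188 nt each) and SNORD96A in RACK1 (177 nt). SNORD96A was also wide in galactose (176 nt). Of the 6 wide H/ACA peaks in normal glucose, 5 started at the 5′ end and none reached the 3′ end, among them SNORA73A and SNORA73B (191 and 190 nt) in the snoRNA host SNHG3 and SNORA57 (194 nt). SNORA7A in RPL32 was spanned whole in galactose (242 nt) and covered at its 5′ part in normal glucose (185 nt). EIF4A1 and its overlapping readthrough gene held wide peaks at 3 snoRNAs, SNORA48 in galactose (198 nt), SNORA67 in low (198 nt) and SNORD10 in normal glucose, and no 2 of these in the same list.

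Spliceosomal RNAs, which build the machine that removes introns, had 2, 3 and 5 wide peaks. They had 13, 18 and 24 narrower ones, and their shares of wide and narrower peaks were close. RNU2-2P, a U2 locus whose middle also lies in a 5′ untranslated region (5′UTR) of WDR74, was wide in all 3 lists, with the same peak of 201 nt in galactose and low glucose and one of 266 nt in normal glucose. All 3 peaks shared the same genomic end toward the RNA's 3′ side. The normal glucose core began at -2 nt, against 63 nt inside the RNA in the other lists. RNU1-88P was 171 nt in each list, its core starting at -2 nt. The U4 genes RNU4-1 and RNU4-2 (201 nt each) and RNU1-1 (173 nt) were wide in normal glucose alone, with cores from -4 or -2 nt, while RNU4ATAC of the minor spliceosome was wide in low glucose alone (162 nt), with a core from 69 nt inside the RNA to 4 nt past its 3′ end. The 7SL, 7SK and RNase P RNAs added RN7SL1 in galactose and RN7SL767P (204 nt), RN7SKP79, RN7SKP180 (189 nt), RN7SKP255 (153 nt) and RPPH1 (195 nt) in normal glucose, and none in low glucose. Loci of the RNAs that polymerase III makes, other than tRNA, were also counted, with 5S loci and pseudogene copies included. Whether the copies are transcribed was not tested. Of those with any peak, 4 of 22 genes had a wide one in galactose, 4 of 27 in low and 21 of 62 in normal glucose. Of all peaks, 14.2%, 14.05% and 20% were wide, but those are shares of peaks. A gene with several peaks has more chances of a wide one.

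Protein coding exons made up more of the wide peaks in low glucose than in the other lists, with 18 of 68 (26.5%, interval 16.5 to 38.6%), against 5 of 48 in galactose (10.4%, 3.47 to 22.7%) and 8 of 99 in normal glucose (8.08%, 3.55 to 15.3%). Of the narrower peaks, exons took 40.1%, 42.8% and 38.9% in galactose, low and normal glucose. Low glucose also had more peaks of 126 to 150 nt (31, against 8 and 6). Its wide exon peaks had a median width of 174 nt. The share of exons at another threshold was not computed. Of 28 exon regions, TMSB4X alone was wide in every list, and FTL alone in 2. TMSB4X encodes thymosin beta-4, which binds actin monomers, and its peak lay at exon 1 in the 5′UTR (165, 165 and 163 nt). FTL encodes the ferritin light chain, whose 5′UTR carries an iron-responsive element, and its exon 1 peak was 174 nt in low glucose and 192 nt in normal glucose. The other 26 were wide in 1 list, and 20 of them met no peak of any width in the other lists.

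In low glucose, 16 exon regions were wide there alone. They included genes of translation, namely EEF2 in exon 13 (246 nt), RPL8 at exons 1 and 3 (219 and 203 nt), RPL13 (167 nt), RPL37 (153 nt) and RPS23 (151 nt). Genes of the cytoskeleton were ACTG1 (196 nt), PFN1 (197 nt), LASP1 (152 nt) and FLNA (164 nt, the one 3′UTR peak). Others were LYN, ALDOA of glycolysis in its 5′UTR (174 nt), the phosphatase gene PTP4A1 and a gene overlapping it (184 nt), the chromatin protein gene HMGA1 (168 nt), LAPTM5, a lysosomal membrane protein of blood cells (161 nt), and the linker histone H1-5 (187 nt). RPL13 had a peak of 1 extended site in normal glucose, and LAPTM5 had one in galactose. For the widest 3, LYN, EEF2 and the exon 1 peak of RPL8, no other list held a peak.

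In galactose the exon peaks were all in exon 1, in the 5′UTR of AP2A1, an adaptor of endocytosis (183 nt), EIF4EBP2, a repressor of translation (187 nt), TRIM28, a co-repressor of transcription (183 nt), and TMSB4X, and in the linker histone H1-2 (171 nt). Normal glucose had 2 glycolytic genes, PKM in exon 9 of 11 (172 nt) and PGK1 in exon 10 of 11 (152 nt), RPLP1 of the ribosomal stalk (166 nt) and the histone genes H3C10 (173 nt), H3C13 (160 nt) and H4C9 (164 nt). The wide peaks of exons lay in exon 1 for 5 of 5, 9 of 18 and 6 of 8, against 46.6%, 44.9% and 28.6% of the narrower exon peaks, and 1, 1 and 3 of these wide peaks were in histone genes of 1 exon. In 4 of 5, 12 of 18 and 6 of 8 the peak, with its added 50 nt, reached past the exon. Of the study's targets, PKM was wide at its own exon and RPL13A through SNORD35A. GAPDH, TNF and MYC had no wide peak. Wide peaks were found in 11 of the 54 ribosomal protein genes that had any peak, in 2 of 27 in galactose, 5 of 34 in low and 5 of 35 in normal glucose. In some of these genes the peak lay on a snoRNA or, in RPS29, on RN7SL1. Of all peaks, 14.2%, 14.05% and 20% were wide, which are again shares of peaks and not of genes.

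Merged over the lists, wide peaks formed 137 regions. Of these 35 (25.5%, interval 18.5 to 33.7%) were wide in all 3 lists, 31 with identical ends, and 26 of the 35 lay on tRNA genes. By contrast 94 regions were wide in 1 list: 56 in normal glucose, 29 in low glucose and 9 in galactose. At 65 of the 94 no other list had a peak of any width, and at 29 another list had a narrower one. tRNA genes were wide in all 3 lists for 26 of 38 regions (68.4%, interval 51.4 to 82.5%), and snoRNAs for 0 of 23 (0 to 14.8%), which allows a share of up to 14.8%.

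**Figure D4:**
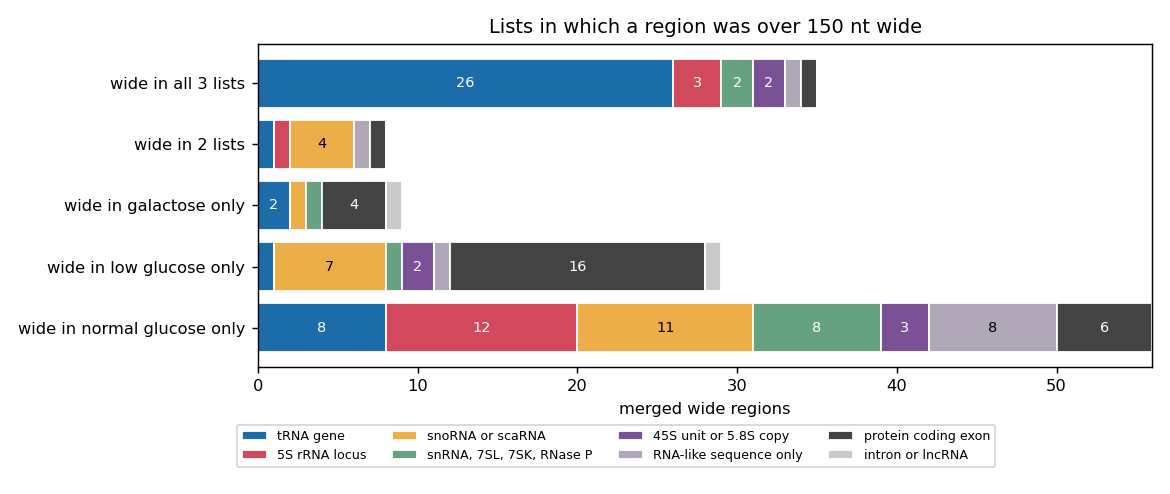
Number of merged wide regions (x axis) by the lists in which they were over 150 nt wide, coloured by what they lay on, with counts of 2 or more printed. The top bar holds 26 tRNA genes among 35 regions, and the regions wide in low glucose alone hold 16 protein coding exons among 29.

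Wide peaks were met by a peak of another list more often than narrower ones. In galactose 43 of 48 wide peaks overlapped a peak of low glucose (89.6%, interval 77.3 to 96.5%) and 42 of 48 one of normal glucose (87.5%, 74.7 to 95.3%), against 51.6% and 33.6% of the narrower peaks. In low glucose 44 of 68 met galactose (64.7%, 52.2 to 75.9%) and 45 of 68 met normal glucose (66.2%, 53.7 to 77.2%), against 35.6% and 21.6%. In normal glucose 45 of 99 met galactose (45.5%, 35.4 to 55.8%) and 54 of 99 met low glucose (54.5%, 44.2 to 64.6%), against 24% and 20.5%. A wide peak covers more bases and can be met more easily. With an overlap of 50% of both peaks required, the shares of the wide peaks were 87.5% and 87.5%, 63.2% and 63.2%, and 43.4% and 50.5%. That overlap was not computed for narrower peaks. Without the wide peaks on tRNA genes the shares were 73.7% in galactose for both other lists, 41.5% and 43.9% in low glucose, and 25% and 35.9% in normal glucose. For galactose as the other list, normal glucose was then near its narrower peaks (25% against 24%), and low glucose closer to them (41.5% against 35.6%). The other pairs lay further apart. Only 2 and 3 of the 18 exon peaks of low glucose met a peak of galactose and normal glucose.

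In base composition the wide peaks were poorer in G and C. Their median GC content was 51.1%, 52.9% and 51.4%, against 59.4%, 60% and 55.45% in the narrower peaks. By kind, wide peaks on tRNA genes had medians of 49.4%, 49.4% and 49.7% and wide peaks on exons 73.2%, 68.8% and 63.2%. Recurrent sequence made up 16.7%, 11.8% and 15.2% of the wide peaks and 18.3%, 13.9% and 27.8% of the narrower ones. Genes with wide peaks at separate places were mainly hosts of tRNA or snoRNA genes: ENSG00000287264 had 4 places, ENSG00000273112, KCTD2, LINC00324 and EIF4A1 had 3 each, and VAC14, RPL3, RCC1, C19orf48 and SNHG3 had 2 each. Of the annotated genes over 45S units, ENSG00000278996 and ENSG00000280441 had 3 each, and RPL8 was the one with 2 places in its exons. Of 15 marker genes of myeloid and leukaemia cells 3 had a peak in any list, 1 of them wide (FCGR2A, over a tRNA gene), and of 9 markers of other cell types none had a peak. These counts too stand without the share of all genes that had a peak. The lists give positions and no levels, so they cannot test the labelled cell type.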

How the data were processed

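GAPDH CLIP-seq of 6 MOLM-13 samples was analysed from the 3 peak lists that the authors deposited, 1 for each medium with both samples joined. The deposited values are positions, of no other unit, with gene names. Reads had been trimmed with cutadapt and aligned with STAR to hg38 (GRCh38) per the submitters' processing notes, which state no version. RNA was trimmed with RNase T1, crosslink sites came from PureCLIP, and nearby sites were merged and single sites extended. Peak thresholds are not given in the sources used here. The gene annotation of the lists has no nuclear tRNA genes, so tRNA peaks carry the names of the genes around them.

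Distinct positions were read as 1-based with both ends included. A start counted from 0 would move widths and core starts by 1 nt. Peaks were assigned to, in this order, a nuclear tRNA gene (443, RefSeq), a small RNA gene named in the list (GENCODE release 44), a 45S unit, a protein coding exon, a sequence match (BLAST 2.17.0, e-value 1e-10, at least 50 nt), an intron, or other. The middle of the peak decided for tRNA genes, 45S units, exons and introns. For small RNA genes any overlap was enough, and a sequence match could lie anywhere in the peak. Exon places were taken over all transcripts, coding sequence first. The tRNA strand was taken from the motif GTTCNANNC and the anticodon, and 420 of 443 had one. The core is the peak without 50 nt at each end, which assumes that merged sites were extended as single ones were. Of 1776 pairs of a peak and a gene, 1765 had an identifier in GENCODE. Intervals are 95% Clopper-Pearson for shares and conditional for odds ratios (SciPy 1.17.1), and the code was tested on simulated data. Regions are wide peaks of the lists merged where they overlap by at least 1 nt.

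The members, gene lists and tests were chosen with earlier results of these data known. Named were the 3 widest peaks of each list, tRNA genes wide in all lists, wide peaks off tRNA genes and 45S units found in 2 or more lists or among the 10 widest of a list, genes with several wide places, peaks next to the threshold, and the study's targets. Genes named beyond that rule, among them most snoRNA and exon peaks of a single list, were chosen after their values were seen. The U2 locus is printed at 30 bases because it lies in a UTR. No depth is known, no score was given, and no sample column was left unused.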

Additional observations from a re-analysis of the deposited data

How the results depend on the processing

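Over 22 results and 89 other settings, 67 left the value within the interval of the reported one, the quartiles of its peaks or, for a count, 1.5 times, and none turned a direction. No paired analysis was possible because the authors joined the samples of each medium before deposit, and for the same reason leaving out a sample was not run. A stricter threshold of the peak caller was not run either, since the lists hold no score.

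The other 22 values were these. A threshold set 25 nt higher left 44 wide peaks in low glucose and raised their share on tRNA genes to 59.1%. One set 25 nt lower gave 99 wide peaks in low glucose and a share of 28.3%, both still within the limits. Counting any overlap with a tRNA gene, in place of the middle, gave odds ratios of 10.6, 5.99 and 9.23 for galactose, low and normal glucose. Against narrower peaks of more than 1 extended site only, the odds ratio was 11.4 in galactose, beside 14.6 in low and 12.97 in normal glucose, which stayed within the intervals. Without recurrent peaks it was 181.1 in normal glucose, where 1 narrower tRNA peak was left. Counting only wide peaks of the other list as met, the share was 72.9% of galactose peaks for low glucose, 51.5% of low glucose peaks for galactose and 39.4% of normal glucose peaks for low glucose. Without the wide peaks on tRNA genes, it was 73.7% for galactose in both other lists, 41.5% for low glucose in galactose and 43.9% in normal glucose, and 25% for normal glucose in galactose and 35.9% in low glucose. With no bases removed at the ends, the median start was -52 nt and the median end 53 nt from the tRNA's ends in each list, as the 50 nt make it.

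The lists hold positions without reads, so a peak missing from a list is not evidence of no binding there, and the part that depth had in the share of wide peaks was not tested.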
